A study of Homo sapiens
Mus musculus and Homo sapiens and Mus musculus with 7 samples.

Results

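BCAR1 and its mouse copy Bcar1 are 1 gene of each species, taken by identifier from the 113473 genes counted (58721 human and 54752 mouse). Both were chosen by their measured levels, which were far higher in immunoprecipitates (IPs) made with an antibody against the HA tag than in those against the V5 tag. Levels in HA and V5 IPs are therefore a description here and carry no test. The study grew human HEK293 cells, an embryonic kidney line, together with mouse NIH3T3 fibroblasts. The HEK293 cells expressed the large-subunit ribosomal protein RPL22 fused to HA, and the NIH3T3 cells expressed RPL22 fused to V5, so that each antibody could pull down ribosomes of 1 line with the mRNA on them. The 7 libraries were 2 HA IPs, 2 V5 IPs, 1 from whole RNA of the mixed culture (the input), 1 from HEK293 alone and 1 from NIH3T3 alone. Per the labels, both first IPs came from lysate 1, the second HA IP from lysate 5 and the second V5 IP from lysate 4, and whether the lines grown alone carried the tags is not given. First and second are the order of IP that the labels state. They do not say whether a second IP was made from lysate already used for another, so the 2 IPs of a kind may not be independent repeats.

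BCAR1, also called p130Cas, is the founding member of the Cas family of adaptor proteins. It sits at focal adhesions, where integrins join the matrix to actin, and has an SH3 domain that binds focal adhesion kinase (PTK2), a long substrate domain of repeated tyrosine motifs and a binding site for SRC. When SRC-family kinases phosphorylate the repeats, the adaptors CRK and CRKL bind them and pass the signal to DOCK1 and RAC1, which drive cell spreading and migration.

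Library totals ran from 826781 to 2063885 counts. Human genes held 82.1% and 77.6% of counts in the first and second HA IPs, 26.9% in the input, and 6.25% and 4.48% in the V5 IPs. Mouse genes held 0.0131% of the counts of HEK293 alone. Unless stated otherwise, levels are CPM, counts scaled to the library's total for the gene's own species, which takes the species mix out. The ranges in brackets are 95% confidence bounds (Clopper-Pearson, exact). They describe counting error alone, as the labels name no molecular identifiers. Among 6 markers of HEK293 cells, KRT18, UCHL1 and CDH2 were abundant enough to be tested in human counts, and NEFM had 0 counts in every library. Their fitted log2 differences between HA IPs and input were −0.23, −0.07 and −0.48. Between HA and V5 IPs they were 3.04, 1.72 and −0.83.

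Human BCAR1 (ENSG00000050820.16) lies on chromosome 16 of hg38, minus strand, 75228187 to 75268053. The part of its coding sequence printed here, chr16:75235687-75235986 on the minus strand, lies within exon 6 of 8 of the longest coding transcript in GENCODE 29 (ENST00000418647.7), codons 351 to 450 of 916. Capitals mark each place where codons for tyrosine, aspartate, valine and proline stand in that order in the reading frame. The stretch was picked as the 300 bases within a single exon that hold the most of these places.
BCAR1 exon 6: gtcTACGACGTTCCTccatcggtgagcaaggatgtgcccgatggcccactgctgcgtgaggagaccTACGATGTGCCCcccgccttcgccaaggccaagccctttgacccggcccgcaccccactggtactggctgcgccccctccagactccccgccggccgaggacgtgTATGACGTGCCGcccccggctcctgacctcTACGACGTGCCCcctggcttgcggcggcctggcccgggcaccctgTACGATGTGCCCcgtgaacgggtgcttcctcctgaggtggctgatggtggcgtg

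The full coding sequence held 7 such runs, in 3 exons, between codons 295 and 436. The stretch above has 5 of them, and the other 2 lie just upstream in exons 4 and 5.
BCAR1 exon 4 run, codon 295: TATGATGTGCCC
BCAR1 exon 5 run, codon 333: TATGACGTGCCC

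Of 9 complete coding transcripts of BCAR1, 8 held all 7 runs and 1 held none. The same codon search over the longest coding sequence of 19537 human genes found a run in 46 of them (0.235%). BCAR1 had the most. EFS, another Cas family member, followed with 3. The family member NEDD9 and the giant muscle protein TTN had 2 each, and 42 genes had 1, the remaining family member CASS4 among them. As background, the HA tag is a short peptide taken from influenza haemagglutinin, and the same 4 amino acids lie in its middle in the same order. Mouse coding sequences were not analysed here.

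BCAR1 was scarce in human cells outside the HA IPs. The first HA IP held 158 counts of it and the second 221. The co-culture input and HEK293 alone held 3 each, the first V5 IP 1, and the second V5 IP and NIH3T3 alone 0. As CPM of human counts these were 217 (184 to 253) and 182 (159 to 208) in the HA IPs, 10.7 (2.21 to 31.3) in the input and 3.63 (0.748 to 10.6) in HEK293 alone. The first V5 IP gave 7.76 CPM (0.196 to 43.2). The second gave 0 counts, where 3 counts would be 36.7 CPM, so a level like that of the input could not have been seen. Both HA IPs lay above the input, HEK293 alone and the V5 IPs with no overlap of intervals. This is a description, since BCAR1 was chosen for its gap between HA and V5 IPs. NIH3T3 alone, with 511 human counts in all, sets no limit for BCAR1. The intervals of the input, HEK293 alone and the V5 IPs overlapped one another. The mean was 199 ± 24.3 CPM (SD, n = 2) in the HA IPs and 3.88 ± 5.49 CPM (SD, n = 2) in the V5 IPs.

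Mouse Bcar1 (ENSMUSG00000031955.10; chromosome 8, minus strand, 111710474 to 111743809 in the files' coordinates) was also highest in the HA IPs. The first HA IP held 788 counts and the second 2121, while the input held 78 and NIH3T3 alone 178. The first V5 IP held 92, the second 21, and HEK293 alone 0. As CPM of mouse counts these were 4969 (4629 to 5328) and 6057 (5803 to 6320) in the HA IPs, 103 (81.2 to 128) in the input and 89.1 (76.5 to 103) in NIH3T3 alone. In the V5 IPs they were 47.5 (38.3 to 58.3) and 12.04 (7.45 to 18.4). The intervals of the input and NIH3T3 alone overlapped. Every other neighbouring pair in this order was apart, with both HA IPs highest and the second V5 IP lowest. That order is a description too, since Bcar1 was chosen for its gap between HA and V5 IPs. The mean was 5513 ± 769 CPM (SD, n = 2) in the HA IPs and 29.8 ± 25.1 CPM (SD, n = 2) in the V5 IPs. For the species shares of a bulk library, fewer cells of a line and less RNA per cell cannot be told apart. CPM within a species takes that mix out.

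**Figure D1:**
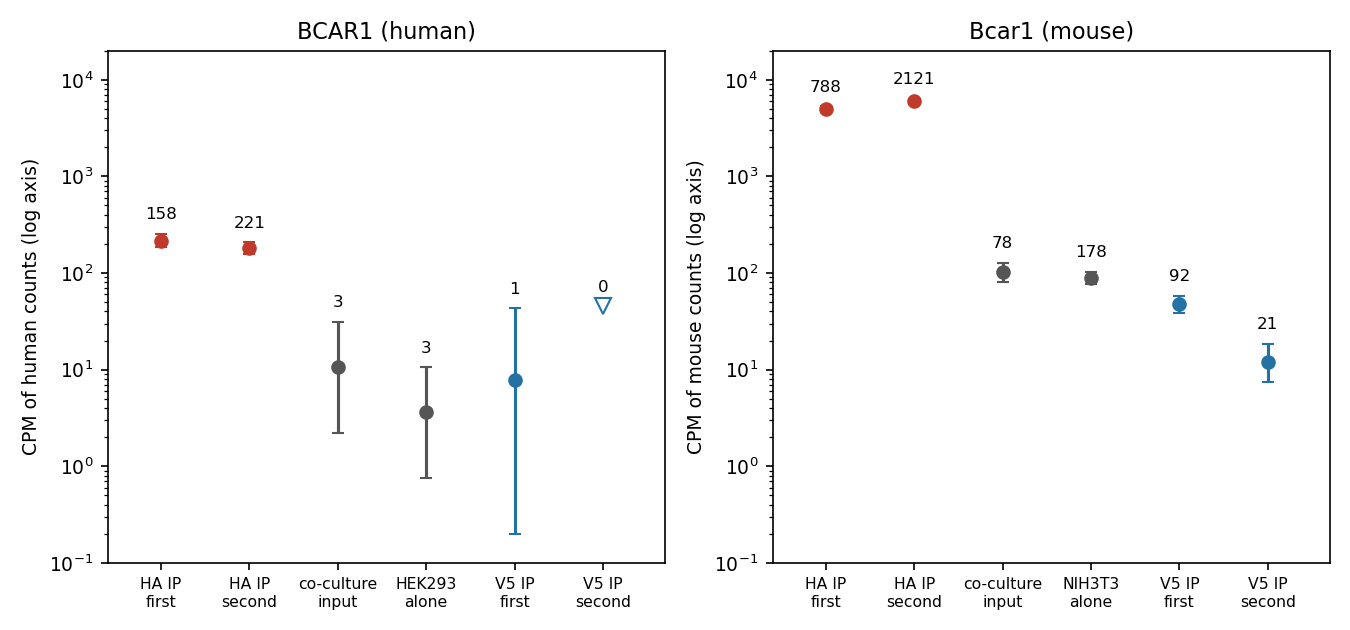
Level of BCAR1 as CPM of human counts (left) and of Bcar1 as CPM of mouse counts (right) in each library that holds the species, on log axes. Points are single libraries with exact 95% counting intervals, the number above each is its count, and the open triangle is the upper limit where the count was 0. In both panels the HA IPs lie above every other library, at 217 and 182 CPM for BCAR1 and 4969 and 6057 CPM for Bcar1. Both genes were chosen for levels far higher in HA than in V5 IPs.

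The HA antibody was aimed at the human ribosomes, yet in raw counts the mouse gene, with 4547 exonic bases against 9178, was the higher of the pair in these IPs. Bcar1 made up 0.497% and 0.606% of all mouse counts in the first and second HA IPs, against 0.0103% in the input. Per length, Bcar1 was at 1093 and 1332 CPM per kilobase of exon in the HA IPs, ranking 91 and 87 among 8221 mouse genes tested. In the input it was at 22.6 and ranked 1801. BCAR1 was at 23.6 and 19.8 on its own species' scale, ranking 1764 and 1710 of 6244 human genes, against 1.17 and 4667 in the input. Its share was also higher on the scale of all counts of both species, of which mouse genes made up a minor part in the HA IPs. On that scale Bcar1 was at 887 and 1357 CPM after HA IP, 75.0 before any IP, and 44.6 and 11.5 after V5 IP.

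Set against RNA of the same species that had not been pulled down, both genes were many-fold higher in the HA IPs, with overlapping intervals against the lines grown alone. Relative to the line grown alone, Bcar1 was 55.8-fold higher in the first HA IP (47.4 to 66.0), and in the second 68.0-fold (58.3 to 79.7). BCAR1 was 59.7-fold higher than in HEK293 alone in HA IP 1 (20.0 to 292) and 50.2-fold higher in HA IP 2 (17.0 to 245). Relative to the co-culture input, Bcar1 was 48.4-fold (38.3 to 61.9) and 59.0-fold higher (47.1 to 74.9). BCAR1 was 20.2-fold (6.79 to 99.1) and 17.01-fold higher (5.75 to 83.1) than in the input. Each human comparator held 3 counts, and the difference between the species was not tested.

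Fitted over all genes of a species with edgeR, Bcar1 differed between HA IPs and input by a log2 of 5.29 (SE 0.70) and BCAR1 by 4.00 (SE 1.25). The medians of all genes tested were 0.00 for mouse and 0.38 for human. Over all 8221 mouse genes edgeR called 1.63% between HA IPs and input and 0.268% between HA and V5 IPs. The first share rests on 134 genes, a number that ranged from 20 without the second V5 IP to 1381 without the second HA IP. The second rests on 22, which ranged from 2 without the first V5 IP to 794 without the second HA IP, with 23 and 969 (HA against input) and 3 and 435 (HA against V5) when the other V5 and the other HA IP were left out. Among genes of at least 50 CPM in either, BCAR1 had the highest ratio of HA IPs to HEK293 alone of 2584 human genes (log2 5.16, with 2 CPM added), ahead of MIF at 4.78 (a gene named after its value was seen). Against the input it was number 21 of 2486. Bcar1 was number 3 of 2686 mouse genes against the input and number 2 of 2773 against NIH3T3 alone, where ENSMUSG00000043909.16, likewise named after its value was seen, was higher. BCAR1 met the limit of 50 CPM through the HA IPs alone. By fitted log2 against the input over all genes tested, without that limit, BCAR1 was number 680 of 6244 and Bcar1 number 421 of 8221. These places are descriptions, since the HA libraries took part in the choice of both genes.

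**Figure D2:**
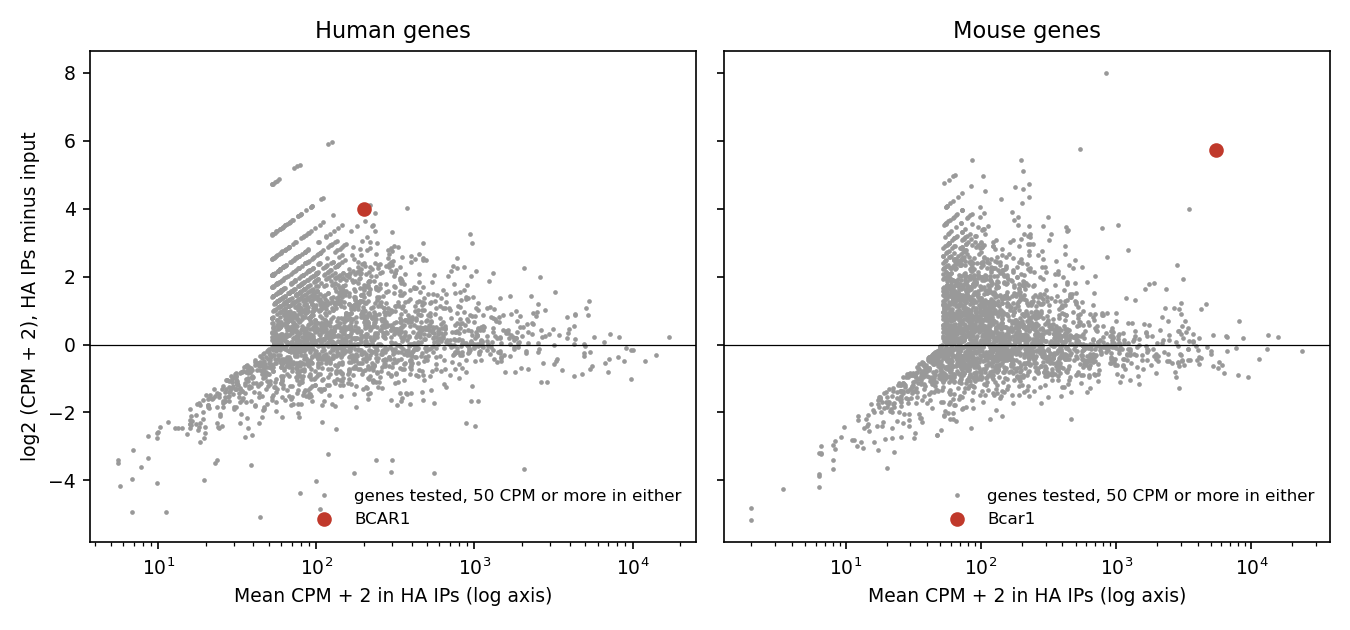
Each point is a gene with at least 50 CPM in either the HA IPs or the input, by its mean CPM + 2 in the HA IPs (log axis) and the log2 difference of CPM + 2 between HA IPs and input. The limit of 50 CPM gives the cloud its straight lower-left edge. BCAR1 lies at 3.99 among human genes, and Bcar1 at 5.72 among mouse genes, where it is also among the most abundant.

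The V5 antibody was aimed at the mouse ribosomes, and Bcar1 was lower there than in the RNA of the whole culture. It was 2.16-fold lower in the first V5 IP than in the input and 8.53-fold lower in the second. The V5 to input ratios were 0.463 (0.339 to 0.634) and 0.117 (0.0688 to 0.192). The first V5 IP was thus 3.95-fold above the second (2.44 to 6.68), a wider gap than the 1.22-fold difference between the HA IPs (1.12 to 1.32), which ran toward the second. The fitted log2 difference of V5 IPs from input was −2.04 (SE 0.54), against a median of 0.12 over mouse genes. By ratio Bcar1 was number 67 from the lowest of 2435 genes. These values and this place are descriptions, since the V5 libraries took part in the choice of Bcar1. The second V5 IP also differs from the first by its lysate number, and the part of the lysate in this gap was not tested. For BCAR1, 1 and 0 counts against 3 do not determine the V5 to input difference (log2 −1.69, SE 1.83).

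Because HA and V5 IPs chose the genes, the contrast between them is given without a test. The fitted log2 difference was 7.33 (SE 0.56) for Bcar1 and 5.69 (SE 1.22) for BCAR1. Without the first V5 IP the BCAR1 value was 9.94, where the V5 side had 0 counts and the fit sets no size. The pairs of equal number gave 105-fold (84.1 to 131) and 503-fold (328 to 814) for Bcar1 on mouse counts. For BCAR1, 158 against 1 count in the first pair gave 27.9-fold (4.94 to 1109). Against a floor of 3 counts in the second V5 library, BCAR1 was at least 4.97-fold higher in the second HA library.

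Since the 2 genes are copies of one ancestor, reads of one could be assigned to the other. In NIH3T3 alone 0 of 178 counts of the pair fell on the human gene, which allows a share of up to 1.69% taking 3 counts as the limit, or 2.05% as the exact upper bound. Human counts made up 16.7% (14.4 to 19.2) of the pair in the first HA library and 9.44% (8.28 to 10.7) in the second. Their part was 3.70% (0.770 to 10.4) in the input and 1.08% (0.0272 to 5.85) in the first V5 IP. The mouse gene thus gave 83.3% and 90.6% of the pair's counts in the HA IPs, where mouse genes as a whole gave 17.9% and 22.4%. In HEK293 alone all 3 counts of the pair fell on BCAR1, and the exact lower bound of the human share was 29.2%. With so few counts, assignment of human reads to Bcar1 is limited only loosely. The part of such reads in the HA values was not tested.

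**Figure D3:**
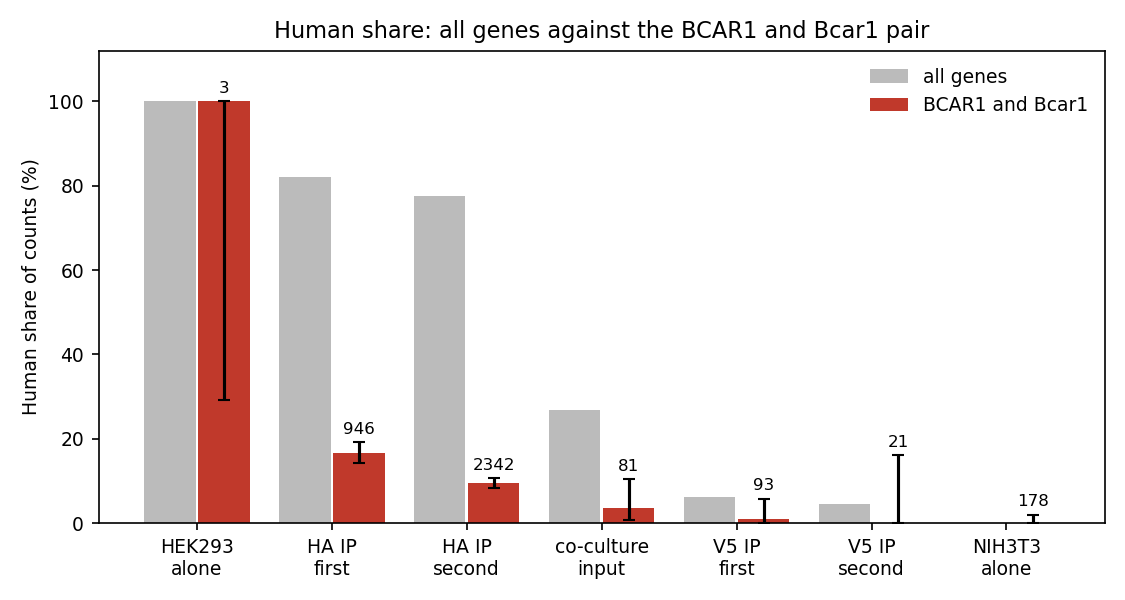
Human share of all counts (grey) and of the counts of BCAR1 and Bcar1 together (red, with exact 95% counting intervals) in each library, with the pair's counts above the red bars. In the HA IPs human genes held 82.1% and 77.6% of all counts but 16.7% and 9.44% of the pair's.

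The genes beside either copy were read in the same libraries. CFDP1, on the far side of a gap of 25645 bases from BCAR1, was at 78.1 and 105.5 CPM after HA IP and, from 29 and 13 counts, at 225 and 159 CPM after V5 IP. CTRB1, a digestive protease gene on the other side, had 0 counts in every library. ZFP1, 55951 bases away, had 7 and 10 counts after HA IP, 7 in HEK293 alone, and 0 in the input and after V5 IP. Beside Bcar1, ENSMUSG00000031954.6 lay at 59.2 CPM in the input, at 88.3 and 191 after HA IP and at 180 and 138 after V5 IP, and ENSMUSG00000031957.6 had 0 counts. Exons of AC009078.3 cover 8.59% of the exonic bases of BCAR1 and those of AC009078.2 cover 0.120%, and both had 0 counts in every library. No exon of another gene overlaps Bcar1 in the files' annotation.

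The coding sequence of BCAR1 is rich in G and C, at 66.4% against a median of 53.3% over 1980 human genes with a summed level of at least 100 CPM in HA IPs and input. The 120 other genes within 2 percentage points of it had a median log2 difference between HA IPs and input of −0.34 and a highest value of 1.53. BCAR1, at 4.00, lay above all 120. This place is a description, since the HA libraries took part in the choice of BCAR1. It met the limit of 100 CPM through the HA IPs (mean 199 CPM, against 10.7 in the input). Whether GC content has a part in its level was not tested.

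Other human genes with a run of the 4 codons were set beside BCAR1. Of the 45, 14 were abundant enough to be tested, each with 1 run. None was called between HA and V5 IPs or between HA IPs and input by edgeR, and 0.368% and 0.625% of all 6244 human genes were. The log2 ratio of HA IPs to HEK293 alone of these 14 had a median of 0.09 and ranged from −1.48 to 1.19. The median was 0.02 for 5816 coding genes without a run, and BCAR1 was at 5.16. Against the input the fitted log2 of the 14 ranged from −2.23 to 6.04, with a median of 0.28. Genes without a run had a median of 0.42 there, and BCAR1 was at 4.00. The highest of the 14 was MELK, with 0 CPM in the input, so its value is not a measure of size. Against HEK293 alone 7 of the 14 lay above 0 and 7 below. BUB3, of the spindle checkpoint, averaged 93.1 CPM over the HA IPs and 214 in HEK293 alone. FAM173A, the most abundant of the 14 in the HA IPs, went the other way, at 161 CPM against 94.4. PSME4, a proteasome activator that shared 5 residues in a row with the tag, was at 13.02 CPM against 7.26. In 88 tested genes other than BCAR1, the longest stretch shared with the tag was 4 residues. EdgeR called 1 of these 88 in each comparison, beside the shares of all human genes given above. ZYX, described below, was called between HA and V5 IPs, and U2SURP between HA IPs and input (log2 3.94). Both had 0 runs of the 4 codons. With BCAR1 the only gene of more than 3 runs and the other family members unmeasured, how the level in the HA IPs varies with the number of runs could not be described. Whether the runs have a part in the result was not tested.

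**Figure D4:**
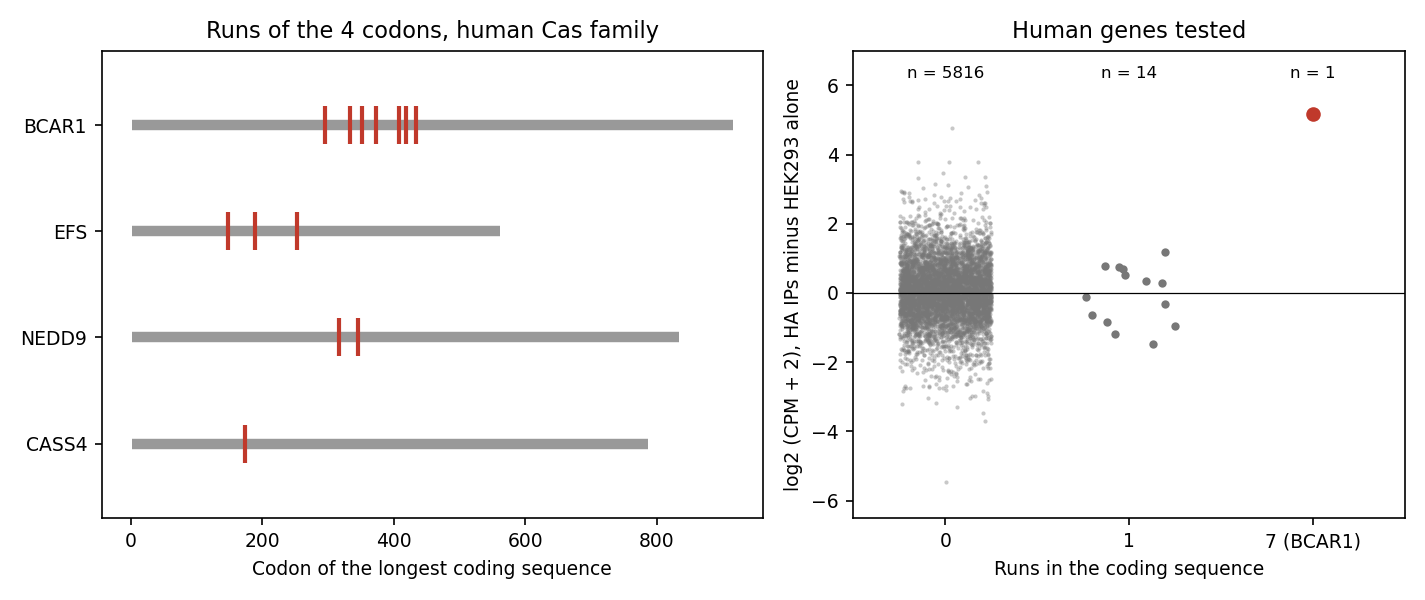
Left, positions of the runs of 4 codons (red marks) along the longest coding sequences of the human Cas family, in codons. Right, log2 difference of CPM + 2 between HA IPs and HEK293 alone for human genes tested, by number of runs. Each point is a gene, and BCAR1, with 7 runs, lies at 5.16 while the 14 genes with 1 run lie between −1.48 and 1.19.

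The other Cas family genes gave no signal on the human side. NEDD9, EFS and CASS4 each had 0 counts in all 7 libraries, so BCAR1 was the only family member detected in human counts. With 1213213 human counts in the second HA IP, 0 counts allow a level of up to 2.47 CPM there. The mouse family was not looked up, since mouse identifiers are not paired with symbols in the sources used here.

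Partners of BCAR1 and other focal adhesion genes were counted from lists. The partner list as used holds CIZ1, which is not an established partner of BCAR1, and all counts over the list keep it. Of 72 such human genes, 29 were tested and 43 were too low. Between HA IPs and input, edgeR's quasi-likelihood test called 0 of the 29, with 22 above 0 and 7 below, and 0 had an unadjusted p under 0.05. DESeq2 also called 0. The median log2 was 0.74, against 0.38 over all human genes. The counts of calls over all human genes behind the 0.625% rose from 39 to 140 without the first V5 IP and to 137 without the second, and the list still had 0.

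Between HA and V5 IPs 1 of the 29 was called, ZYX, and 17 lay above 0 and 12 below (median log2 0.27, against 0.37 over all). ZYX, or zyxin, is a LIM protein of focal adhesions and stress fibres. The HA IPs held 61 and 136 counts of it, and both V5 IPs 0, with 7 in the input and 15 in HEK293 alone. It was higher in the HA IPs with an edgeR adjusted p of 0.0238, at least 7.12-fold against 3 counts over the V5 pair, where 0.048% of human genes were called higher. The call was lost in 7 of 9 alternatives, with adjusted p-values from 0.0125 to 1.00. CIZ1 was called as well without the second V5 IP. The calls over all human genes between HA and V5 IPs went from 23 to 59 without the first HA IP, 52 without the first V5 IP and 117 without the second. Those called higher went from 3 to 42, 16 and 54 in the same order, and DESeq2 called 0 higher.

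Kinases and adaptors of the signalling chain had few counts. PTK2 was sparse, with 1 and 5 counts after HA IP and 4 and 0 after V5 IP, and its log2 from the input was −0.40 (SE 3.08). CRKL had 7 and 8 counts after HA IP and 2 in the input (log2 −0.03, SE 2.53), and DOCK1 had 4 and 2 against 1 (log2 −0.28, SE 3.05). PTK2, CRKL and DOCK1 were among the 4 genes of the partner list below 0 against the input. The other 10 of the 14 tested lay above 0, and the median log2 was 0.71, against 0.38 over all human genes. SRC and CRK were too low to test, at no more than 2 and 7 counts in any library. RAC1, further down the chain, had 42 and 55 counts after HA IP and 3 in the input. Its log2 from the input was 2.05 (SE 1.42, edgeR adjusted p = 0.7555), and from the V5 IPs −0.11 (SE 0.98). The phosphatase PTPN11 was at 90.4 and 37.9 CPM in the HA IPs and 14.3 without IP (log2 difference 1.90, SE 1.26, edgeR adjusted p = 0.740). CIZ1, a nuclear protein of DNA replication kept in the partner list, was at 39.7 and 115 CPM against 35.7 (log2 1.04, SE 1.13, edgeR adjusted p = 0.875).

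Of the adhesion genes, the most abundant were RHOA, ENAH and ITGB1. RHOA, which controls stress fibres, was at 349 and 101 CPM in the HA IPs, 153 in the input, 247 in HEK293 alone, and 124 and 342 in the V5 IPs, so that HA and V5 IPs overlapped. Its log2 from the input was 0.27 (SE 0.73; edgeR adjusted p = 0.965). ENAH, a regulator of actin filament growth, was at 80.9 and 73.4 CPM in the HA IPs and 21.4 without IP (log2 difference 1.66, SE 1.15, edgeR adjusted p = 0.756). The integrin chain ITGB1 was at 56.2 and 39.6 CPM against 32.1 (log2 0.37, SE 1.18; edgeR adjusted p = 0.970).

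**Figure D5:**
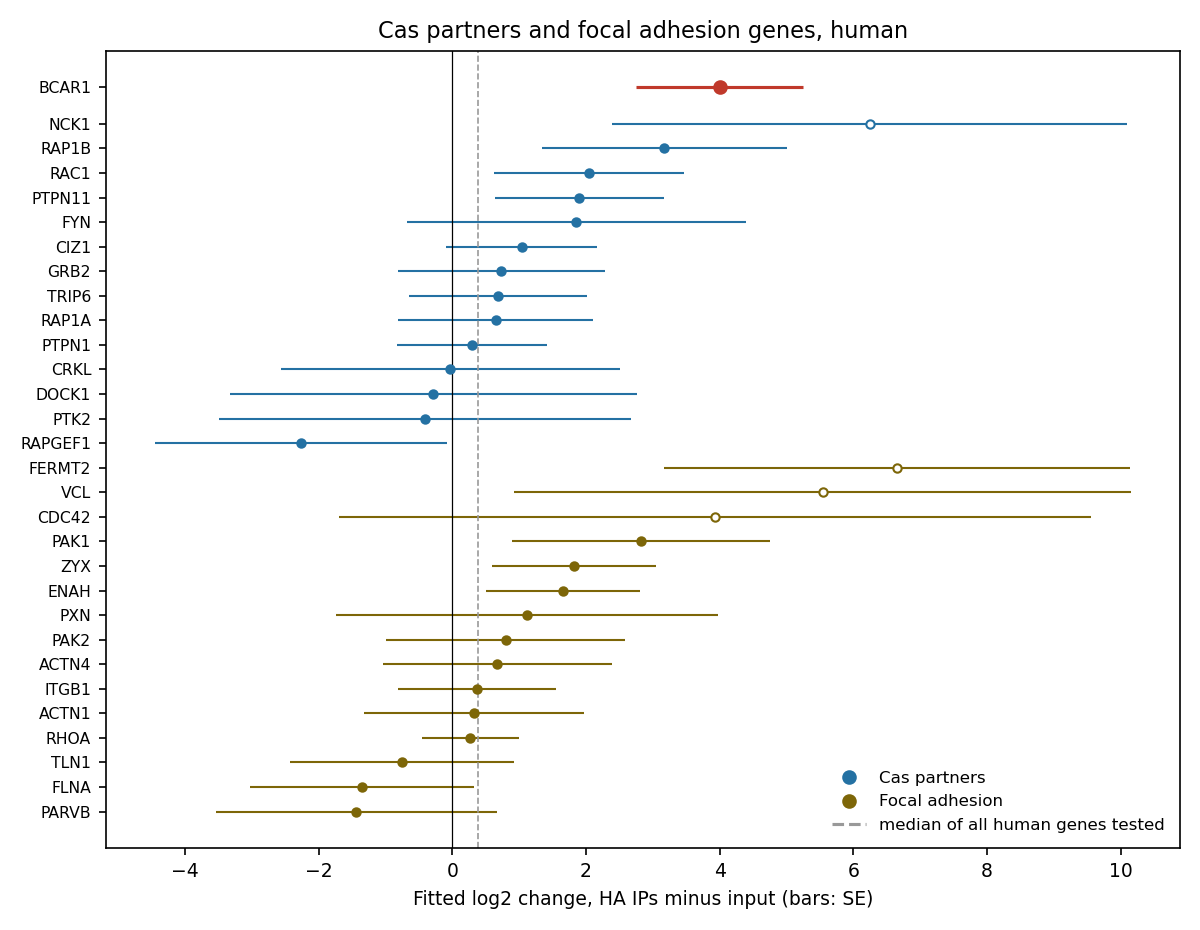
Fitted log2 change between HA IPs and input with its SE for the 29 human genes tested from the Cas partner and focal adhesion lists. BCAR1 (red, described and not tested) is on top, and the median of all human genes is dashed at 0.38. Open points are genes with 0 counts in the input, whose fitted value is not a measure of size, and none of the 29 was called.

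The genes most alike in pattern were found by Pearson's correlation of log2 (CPM + 2) over the 6 libraries that hold the species, as a description over few libraries. For BCAR1 they were CCT4, a subunit of the chaperonin that folds actin and tubulin (r = 0.975), the mitotic protein PTTG1 (r = 0.972), the complex I subunit NDUFA8 (r = 0.960), DMKN (r = 0.944) and the mitochondrial pyruvate carrier subunit MPC2 (r = 0.942). Choice by likeness to BCAR1 favours genes that are high in both HA IPs, and these 5 were highest there. Correlation ignores size: their fitted log2 differences from the V5 IPs were 0.99 to 1.83, against 5.69 for BCAR1. CCT4 was at 740 and 666 CPM after HA IP, 350 in the input, 377 in HEK293 alone and 411 and 269 after V5 IP. For Bcar1 the closest gene was ENSMUSG00000067942.6 (r = 0.989), at 18.9 and 19.99 CPM after HA IP, 9.21 in the input and 7.24 and 6.31 after V5 IP. That gene had no more than 15 counts in any library.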

How the data were processed

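RNA of 7 libraries was analysed. Per the labels' protocols, RNA came from standard extracts or IPs, with SMART-seq cDNA and Nextera DNA Flex libraries. The authors deposited whole-number read counts per gene. Per the file headers, featureCounts 1.5.2 counted read pairs on exons, summed per gene and ignoring strand, with a combined human and mouse annotation, so reads of overlapping genes cannot be told apart. The submitters' processing notes also name bcl2fastq, Trim Galore, STAR 2.5.2, SAMtools and hg38. The mouse build was not given in the sources used here.

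All 58721 human identifiers matched GENCODE 29 in start and end, and human symbols, coding sequences and positions come from that release. Mouse identifiers had no symbols in these sources, and the name Bcar1 follows the identifier. Genes kept by filterByExpr (minimum count 10, minimum total 15) were fitted within each species on the libraries that hold it, with library sizes of that species' counts and TMM factors, by edgeR 4.0.16 (quasi-likelihood test, R 4.3.3), two-sided, with Benjamini-Hochberg adjustment at 0.05. The spread rests on the pairs of IPs (2 residual degrees of freedom), which may be technical repeats, and single libraries were assumed to vary like them. The exact intervals of ratios are conditional binomial. The 4-codon run was counted in frame in the longest complete coding sequence per gene. Alternatives were DESeq2 1.42.0 (size factors, and its Wald test), total counts, no filter, IP order as a block, and each IP left out in turn. The fit was also run on simulated counts with known changes, drawn as independent repeats with a common spread. The outcome is not reported here. Such a run cannot show how the fit performs on IPs that may be technical repeats. Python 3.11.15 with scipy 1.17.1 was used for the rest. No p is given for BCAR1 or Bcar1.

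Named genes are both members, the Cas family, the called and the 3 most abundant genes of each list, the 5 most alike in pattern (mouse ones shortened to the closest), the flanking and overlapping genes, and genes with a codon run. Some of the genes this rule takes are not reported here. PTK2, CRKL, DOCK1, SRC, CRK, MIF, ZFP1, U2SURP and ENSMUSG00000043909.16 fall outside this rule and were chosen after their values were seen. Members and lists were chosen with earlier results of these data known, and which run genes to name was decided after their values were seen.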

Additional observations from a re-analysis of the deposited data

How the results depend on the processing

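Depth limits the human gene: its ratios rest on 3 counts in each comparator and on 1 and 0 counts in the V5 IPs. Of 90 recomputed values 57 stayed within the spread or within 1.5 times, and 33 moved. No log2 value of either gene changed direction. Direction was not judged for counts of calls, and the balance of higher and lower calls turned in some settings, as given below. BCAR1 between HA IPs and input was 3.78 with DESeq2 size factors, 4.19 with total counts and 3.81 in DESeq2, against 4.00. Bcar1 was 5.75 with total counts and 5.56 with IP order as a replicate block, against 5.29, and ranged from 4.89 to 5.60 when each IP was left out. BCAR1 between HA and V5 IPs ranged from 5.00 to 9.94, the highest without the first V5 IP, where the second alone has 0 counts and no size is determined. Human genes called between HA IPs and input numbered 39 (12 higher, 27 lower), 68 with DESeq2 size factors (15, 53), 104 with total counts (65, 39) and 82 in DESeq2 (35, 47), and 29 to 140 when each IP was left out. Between HA and V5 IPs 23 became 38 with total counts, and 18 to 117. Mouse calls ranged from 2 to 794 between HA and V5 IPs, against 22, and from 20 to 1381 between HA IPs and input, against 134 (44 higher, 90 lower; 80 and 33 with total counts). Without the first and second V5 IPs these were 23 and 20, and without the first and second HA IPs 969 and 1381. The adhesion and partner genes called between HA and V5 IPs went from 1 to 0 with total counts, no filter, DESeq2 or the replicate block, and were 0 to 2 when each IP was left out. The cause of these moves was not tested. The numbers of the IPs were not shown to pair the samples: deviations of same-numbered HA and V5 IPs correlated at 0.09 in human and in mouse genes, and the block moved no total of calls over all genes by more than 1.5 times. Within those totals, human genes called higher went from 3 to 7 (HA against V5) and from 12 to 22 (HA against input), and mouse genes called lower between HA and V5 IPs from 2 to 5.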
